A study of Homo sapiens with 14 samples.

Results

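The genes described here encode the main heat shock proteins of the cytosol and of the mitochondrial matrix: HSPA8, HSPA1A and HSPA1B of the HSP70 family, HSP90AA1 and HSP90AB1 of the HSP90 family, HSPH1, DNAJB1 and DNAJA1 as helpers of HSP70, and the HSPD1 and HSPE1 pair of the mitochondrion. They are 10 genes chosen by name, of 27819 genes listed in all tables of the study. RNA-seq libraries came from CWR22RV1, a human prostate cancer cell line. Cells were cultured for 72 h with DMSO as the vehicle in 3 libraries. The inhibitors, each given alone, were Fucotrim I at 30 μM in 3 libraries, Fucotrim II at 60 μM in the 2 libraries analysed here, SGN-2FF at 100 μM in 3 and P-SiaFNEtoc at 2 μM in 3. Both Fucotrims derive from rhamnose-1-phosphate, and their intended target is GMDS, which converts GDP-mannose on the way to GDP-fucose. SGN-2FF is 2-fluorofucose, which enters through fucose salvage, and P-SiaFNEtoc is a sialic acid analog that blocks sialyltransferases. Whether all libraries were prepared and sequenced together is not given in the sources used here.

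Heat shock proteins bind unfolded stretches of other proteins, keep them from aggregating and help them to fold. In the cytosol, J proteins such as DNAJB1 and DNAJA1 bring clients to HSP70, HSPH1 exchanges its nucleotide, and HSP90 completes the folding of clients that include kinases and transcription factors. In the mitochondrial matrix, HSPD1 forms a barrel in which newly imported proteins fold and HSPE1 is its lid. Heat shock factor 1 (HSF1) raises transcription of many of these genes under proteotoxic stress by binding inverted repeats of the letters GAA, called heat shock elements.

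The letters of these elements were looked for in the RefSeq promoter windows of the 10 genes (GRCh38.p14), which run from 250 bases before each annotated start to 50 bases after it. The patterns were the pairs GAANNTTC and TTCNNGAA and a run of 3 units, GAANNTTCNNGAA or TTCNNGAANNTTC. Each pair pattern is its own reverse complement and the runs of 3 units are each other's, so both strands were read at once, and a run of 3 units contains both pairs. Matches upstream of a start are shown in capitals, since they are the letters shared by genes whose levels are described next:

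HSPA8, first match: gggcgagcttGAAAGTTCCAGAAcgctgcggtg
HSPA8, second match: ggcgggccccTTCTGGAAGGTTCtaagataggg
HSP90AA1, first match: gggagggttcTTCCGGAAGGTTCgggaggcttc
HSP90AA1, second match: ttcgggaggcTTCTGGAAaaagcgccgc
HSP90AB1, first match: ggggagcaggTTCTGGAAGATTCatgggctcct
HSP90AB1, second match: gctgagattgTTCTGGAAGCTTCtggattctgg
HSPD1: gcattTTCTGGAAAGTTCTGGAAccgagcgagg
DNAJB1, first match: gggcggggcgGAAGGTTCtggagggggc
DNAJB1, second match: gcgggctctgGAAGCTTCcgccggacgg
DNAJA1: aagggctccaGAAGATTCcacgagcgcc
HSPA1A: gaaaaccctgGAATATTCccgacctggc
HSPA1B: gaaacccctgGAATATTCccgacctggc

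The HSPA8 stretches lie on the minus strand of chromosome 11, at chr11:123062344-123062376 and chr11:123062169-123062201. The HSP90AA1 stretches, which share flanking bases, are at chr14:102087110-102087142 and chr14:102087095-102087122 on the minus strand, and the HSP90AB1 stretches are at chr6:44247768-44247800 and chr6:44247821-44247853 on the plus strand, before the last of the 3 annotated starts of that gene. The HSPD1 stretch is at chr2:197500058-197500090 on the minus strand, and the DNAJB1 stretches are at chr19:14518457-14518484 and chr19:14518427-14518454 on the minus strand. HSP90AA1, HSPD1 and DNAJB1 also have further annotated starts, and in each the window of the start furthest upstream held none of the patterns. The DNAJA1, HSPA1A and HSPA1B stretches are on the plus strand, at chr9:33025065-33025092, chr6:31815427-31815454 and chr6:31827623-31827650. A run of 3 units stood upstream of a start in HSPA8, HSP90AA1, HSP90AB1 and HSPD1. DNAJA1 also has such a run in its window, but after the start, so it is not shown. Anywhere in the window, such a run is found in 0.49% of all 35116 promoter windows and in 0.608% of their 27305 genes. GAANNTTC is found in 6.77% of the windows (8.21% of the genes) and TTCNNGAA in 7.74% (9.46%). The windows of HSPH1 and HSPE1 held none of the patterns. For HSPE1 this depends on the start used. Its window, chr2:197500129-197500428, is set by the RefSeq start, and the HSPD1 match lies outside it. The GENCODE start of HSPE1, chr2:197500140, is further upstream, and the HSPD1 match lies shortly before that start. A match is a description of the letters and not of binding.

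Counts of reads on genes, as the authors deposited them, added up to between 12553094 and 19981453 per library. The markers of prostate luminal cells KLK3, KRT8, KRT18 and HOXB13 were detected in every library (KRT8 at 456 to 827 CPM, counts of the gene scaled to the library total), while PTPRC of leukocytes, PECAM1 of endothelium and TP63 and KRT5 of basal cells had at most 5 counts in any library. COL1A1, a fibroblast marker, was at 15.9 to 29.2 CPM, COL3A1 at 0.17 to 1.29 CPM and ALB, a hepatocyte marker, at 49.8 to 231 CPM. Transcripts encoded by mitochondrial DNA took 5.98 to 7.03% of the counts in DMSO, 8.67 to 14.2% with Fucotrim I, 12.2 and 17% with Fucotrim II, 8.27 to 8.69% with SGN-2FF and 6.11 to 6.83% with P-SiaFNEtoc, and the number of heat shock genes called in each comparison with DMSO was the same without them. Levels are given as CPM scaled by the TMM method over all 14 libraries. Fold changes come from edgeR's quasi-likelihood test, fitted for each inhibitor with DMSO alone, and a gene is called where its p-value, adjusted by the Benjamini-Hochberg method over all genes tested, is under 0.05.

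Most of the measured heat shock genes were lower with 3 of the inhibitors, by less than 1 on the log2 scale. With Fucotrim I, 6 of the 8 genes that could be tested were lower than in DMSO and 1 was higher, in a comparison where 43.8% of all genes tested were called, 22.1% lower and 21.6% higher. With Fucotrim II, 6 of the 8 were lower and none higher, where 51.4% of all genes were called, 25.7% lower and 25.6% higher. With SGN-2FF, 1 was lower and 1 higher, where 20.6% of all genes were called, 9.08% lower and 11.5% higher. With P-SiaFNEtoc, 6 of the 8 were lower, where 16.3% of all genes were called, 7.33% lower and 9.02% higher.

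As a median over the 8 genes, log2 fold changes were -0.24 (Fucotrim I), -0.48 (Fucotrim II), -0.07 (SGN-2FF) and -0.19 (P-SiaFNEtoc), while the median over all genes tested was 0, 0.01, 0 and 0. The genes called lower with Fucotrim I were HSPA8, HSP90AA1, HSPH1, DNAJB1, DNAJA1 and HSPD1, and these were also the ones called lower with Fucotrim II and with P-SiaFNEtoc. All comparisons share the DMSO libraries, so they are not independent of each other. HSP90AB1 was called with none of the 4 inhibitors when each was fitted alone with DMSO. The 10 genes together took 0.835 to 0.862% of the counts in the DMSO libraries and 0.676 to 0.71% with Fucotrim I. That share was 0.559 and 0.593% with Fucotrim II, 0.784 to 0.808% with SGN-2FF and 0.732 to 0.75% with P-SiaFNEtoc, so the DMSO libraries lay above every treated library. The totals include the mitochondrially encoded transcripts, and a larger share of these lowers that of all other genes. They took 8.27 to 8.69% with SGN-2FF against 5.98 to 7.03% in DMSO, and their part in this order was not tested. The libraries are of bulk RNA, in which less RNA per cell and fewer cells with a high level cannot be told apart.

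**Figure D1:**
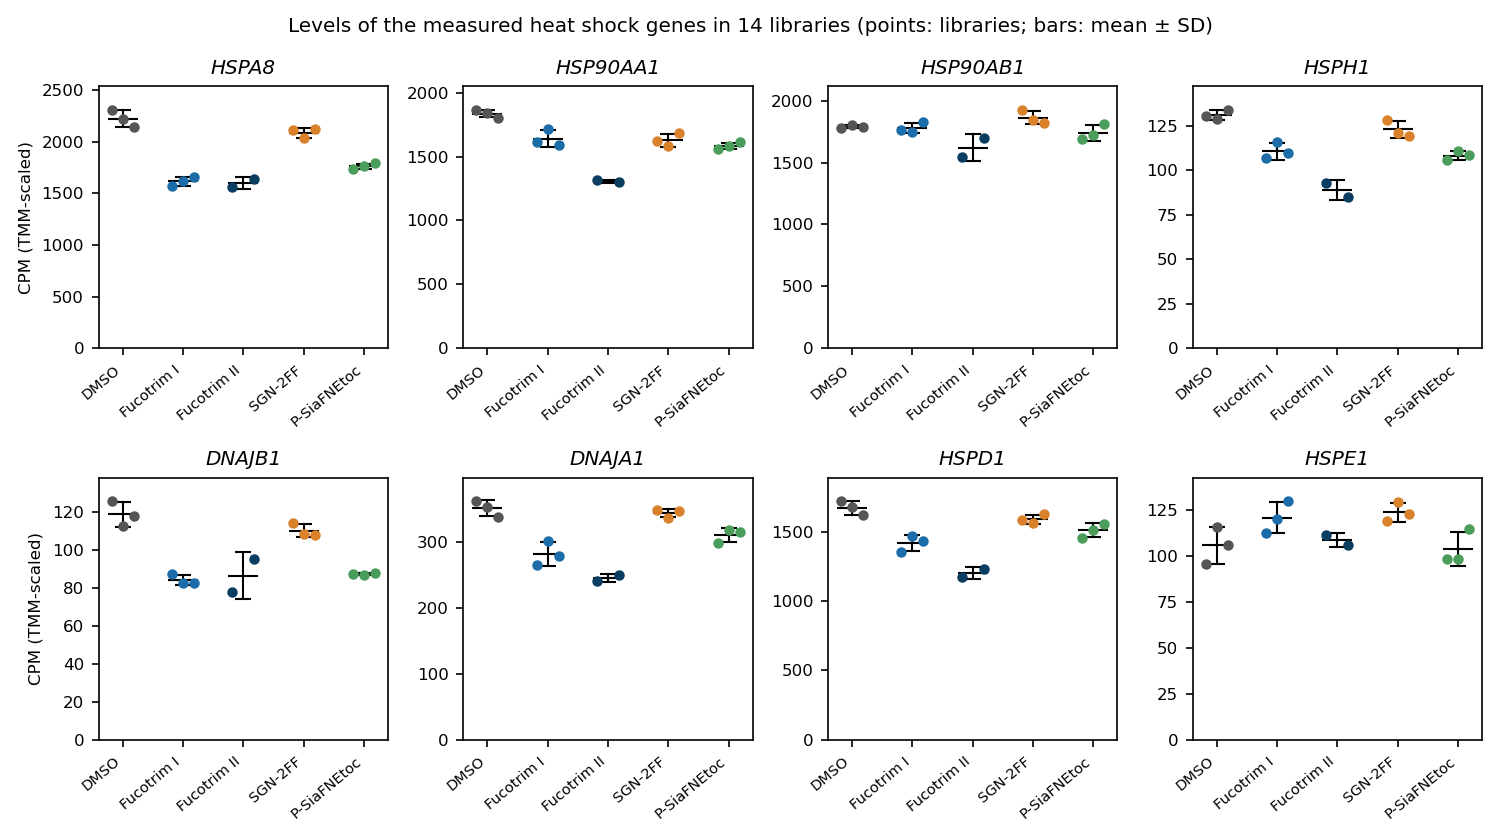
Level of each measured heat shock gene (vertical axes, CPM after TMM scaling, starting at 0) in the 14 libraries, by treatment. Points are libraries and bars are the mean ± SD (n = 3, or n = 2 for Fucotrim II). HSPA8 lies lowest with both Fucotrims, while HSP90AB1 stays between 1542.5 and 1926.3 CPM.

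HSPA8 (NCBI gene 3312, chr11:123057489-123063230, minus strand, hg38) encodes HSC70, the HSP70 that cells make without stress. Its level was 2308.1, 2215.6 and 2144.8 CPM in DMSO, 1574.5, 1614.4 and 1655.6 CPM with Fucotrim I, 1557.1 and 1637.2 CPM with Fucotrim II, 2108.3, 2033.2 and 2119.5 CPM with SGN-2FF, and 1734.6, 1759.7 and 1788.7 CPM with P-SiaFNEtoc. Every treated library was below the lowest DMSO library, by a wide gap with the Fucotrims and P-SiaFNEtoc and by a narrow one with SGN-2FF. The log2 fold change was -0.46 with Fucotrim I (SE 0.05, edgeR adjusted p = 1.96e-07), -0.48 with Fucotrim II (SE 0.07, adjusted p = 0.000482) and -0.33 with P-SiaFNEtoc (SE 0.04, adjusted p = 8.99e-07). With SGN-2FF it was -0.08 (SE 0.03, edgeR adjusted p = 0.0999), which did not pass. On the linear scale these fits put HSPA8 at 0.728, 0.716, 0.794 and 0.946 of its DMSO level.

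HSP90AA1 and HSP90AB1 are the stress-inducible and the constitutive cytosolic HSP90. HSP90AA1 (NCBI gene 3320, chr14:102080742-102139699, minus strand) was at 1866.1, 1838.7 and 1805.8 CPM in DMSO, 1613.4, 1717.6 and 1592.7 CPM with Fucotrim I, 1315.4 and 1297.8 CPM with Fucotrim II, 1622.8, 1581.5 and 1683.8 CPM with SGN-2FF, and 1563.5, 1581.4 and 1611.6 CPM with P-SiaFNEtoc. All 11 treated libraries were below all 3 DMSO libraries, and those of Fucotrim II were lowest. HSP90AA1 was called lower with all 4 inhibitors, at log2 fold changes of -0.16 (SE 0.05, edgeR adjusted p = 0.00885) with Fucotrim I, -0.50 (SE 0.07, adjusted p = 0.00026) with Fucotrim II, -0.16 (SE 0.03, adjusted p = 0.000933) with SGN-2FF and -0.21 (SE 0.04, adjusted p = 0.000433) with P-SiaFNEtoc. Without Fucotrim I replicate 3, the edgeR adjusted p for that inhibitor was 0.0708 and the call was lost.

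HSP90AB1 (NCBI gene 3326, chr6:44246166-44253888, plus strand) was at 1778.2, 1806 and 1788.2 CPM in DMSO, 1760.5, 1748.1 and 1826.5 CPM with Fucotrim I, 1542.5 and 1698.1 CPM with Fucotrim II, 1926.3, 1846.6 and 1818.5 CPM with SGN-2FF, and 1689.1, 1719 and 1814.5 CPM with P-SiaFNEtoc. The libraries of Fucotrim I and P-SiaFNEtoc overlapped those of DMSO, both Fucotrim II libraries lay below them, and the SGN-2FF libraries lay just above. The 95% interval of its log2 fold change was -0.10 to 0.09 with Fucotrim I, -0.31 to 0.01 with Fucotrim II, 0 to 0.14 with SGN-2FF and -0.12 to 0.05 with P-SiaFNEtoc, with edgeR adjusted p of 0.916, 0.101, 0.135 and 0.579. Without Fucotrim II replicate 2, which leaves 1 library of that inhibitor, its value was -0.23. In a single fit of all 14 libraries the value for Fucotrim II was -0.14 and passed (edgeR adjusted p = 0.0292).

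Ratios within a library do not depend on how libraries are scaled. The count ratio of HSP90AA1 to HSP90AB1 was 1.05, 1.02 and 1.01 in the DMSO libraries. It was 0.916, 0.983 and 0.872 with Fucotrim I, 0.853 and 0.764 with Fucotrim II, 0.842, 0.856 and 0.926 with SGN-2FF, and 0.926, 0.92 and 0.888 with P-SiaFNEtoc. The 11 treated libraries thus all lay below the 3 of DMSO. The ratio of HSPA8 to HSP90AB1 was 1.24 ± 0.0513 (SD, n = 3) in DMSO, 0.908 ± 0.0146 (SD, n = 3) with Fucotrim I, 0.987 ± 0.0325 (SD, n = 2) with Fucotrim II, 1.12 ± 0.0436 (SD, n = 3) with SGN-2FF and 1.01 ± 0.0231 (SD, n = 3) with P-SiaFNEtoc. For each ratio the treated and DMSO libraries did not overlap, and the two-sided exact permutation test gave p = 0.1 for 3 libraries against 3 and p = 0.2 for 2 against 3, the smallest these designs allow. Adjusted over the 8 tests of these ratios by the Benjamini-Hochberg method, the exact p-values were 0.133 and 0.2, so none could pass a threshold of 0.05.

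**Figure D2:**
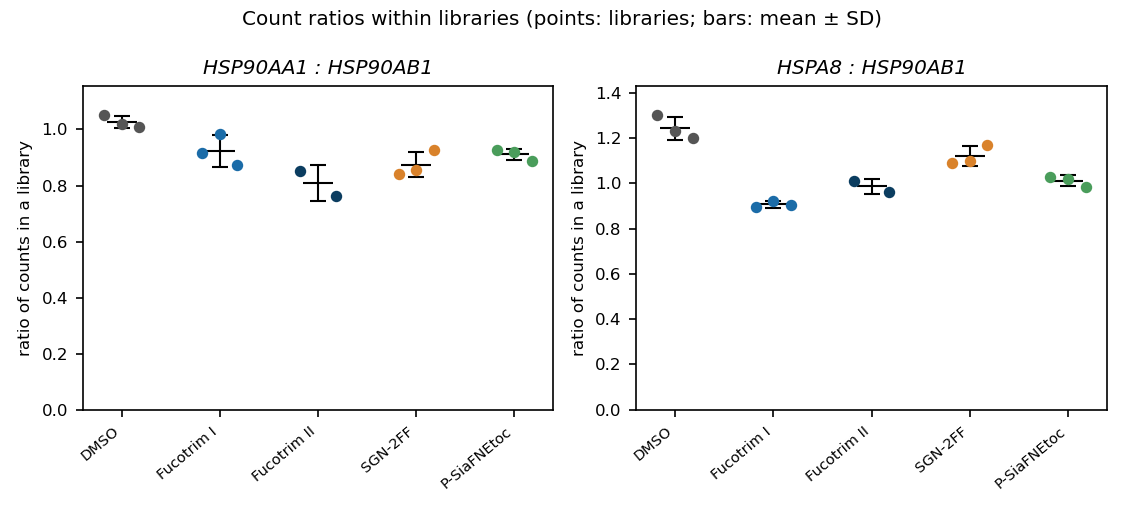
Ratio of the counts of HSP90AA1 (left) and HSPA8 (right) to those of HSP90AB1 within each library (vertical axes, starting at 0), by treatment. Points are libraries and bars are the mean ± SD (n = 3, or n = 2 for Fucotrim II). The DMSO libraries are highest in both panels, and the lowest mean is that of Fucotrim II for HSP90AA1 (0.808) and of Fucotrim I for HSPA8 (0.908).

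HSPH1, or HSP110, is a nucleotide exchange factor of cytosolic HSP70 (NCBI gene 10808, chr13:31134973-31162388, minus strand). Its level was 130.4, 128.9 and 134 CPM in DMSO, 106.7, 115.8 and 109.5 CPM with Fucotrim I, 92.9 and 85 CPM with Fucotrim II, 128.3, 121.2 and 119.4 CPM with SGN-2FF, and 105.7, 110.6 and 108.6 CPM with P-SiaFNEtoc. The highest SGN-2FF library was just under the lowest of DMSO, and the libraries of the other 3 inhibitors lay well below. When SGN-2FF was scaled with DMSO alone, the libraries of the 2 groups overlapped. The log2 fold change was -0.24 (SE 0.05, edgeR adjusted p = 0.000989) with Fucotrim I, -0.57 (SE 0.07, adjusted p = 0.000161) with Fucotrim II, -0.08 (SE 0.04, adjusted p = 0.197) with SGN-2FF and -0.27 (SE 0.04, adjusted p = 3.25e-05) with P-SiaFNEtoc. The value with Fucotrim II, a level of 0.676 of that in DMSO, was the furthest from 0 among the 8 genes and 4 inhibitors.

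DNAJB1 (HSP40) and DNAJA1 are J proteins that deliver clients to HSP70 and start its ATP cycle. DNAJB1 (NCBI gene 3337, chr19:14514769-14560391, minus strand) was at 125.5, 112.6 and 117.6 CPM in DMSO, 87.2, 82.7 and 82.7 CPM with Fucotrim I, 77.7 and 95 CPM with Fucotrim II, 113.9, 108.3 and 107.9 CPM with SGN-2FF, and 87.3, 86.8 and 87.8 CPM with P-SiaFNEtoc. The P-SiaFNEtoc libraries were nearly equal and far below DMSO, the 2 of Fucotrim II differed most from each other, and those of SGN-2FF overlapped DMSO. The log2 fold change was -0.49 (SE 0.06, edgeR adjusted p = 1.05e-06) with Fucotrim I, -0.46 (SE 0.09, adjusted p = 0.00231) with Fucotrim II, -0.10 (SE 0.05, adjusted p = 0.149) with SGN-2FF and -0.44 (SE 0.05, adjusted p = 4.19e-08) with P-SiaFNEtoc. Ordered by log2 fold change from the lowest, DNAJB1 stood 268 among the 14259 genes tested with P-SiaFNEtoc, 668 among 14188 with Fucotrim I, 2102 among 14617 with Fucotrim II and 3844 among 14312 with SGN-2FF.

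DNAJA1 (NCBI gene 3301, chr9:33025273-33039907, plus strand) was at 361.1, 353.2 and 338.1 CPM in DMSO, 265.3, 301.3 and 278.2 CPM with Fucotrim I, 240.7 and 249.2 CPM with Fucotrim II, 347.5, 336.6 and 346.5 CPM with SGN-2FF, and 298.7, 317.7 and 315.2 CPM with P-SiaFNEtoc. SGN-2FF libraries overlapped those of DMSO, and all others were below. The log2 fold change was -0.31 (SE 0.05, edgeR adjusted p = 6.05e-05) with Fucotrim I, -0.52 (SE 0.06, adjusted p = 0.000138) with Fucotrim II, -0.02 (SE 0.04, adjusted p = 0.761) with SGN-2FF and -0.17 (SE 0.04, adjusted p = 0.00286) with P-SiaFNEtoc.

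HSPD1 and HSPE1, the HSP60 and HSP10 of the mitochondrion, are encoded in the nucleus by neighbouring genes on opposite strands. HSPD1 (NCBI gene 3329, chr2:197486584-197516737, minus strand) was at 1718.1, 1676.1 and 1618.2 CPM in DMSO, 1355.9, 1469 and 1431.7 CPM with Fucotrim I, 1172.5 and 1232.3 CPM with Fucotrim II, 1583.2, 1561.3 and 1625.1 CPM with SGN-2FF, and 1456.9, 1514.5 and 1556.3 CPM with P-SiaFNEtoc. Fucotrim II libraries were lowest, and only the SGN-2FF libraries overlapped DMSO. The log2 fold change was -0.23 (SE 0.05, edgeR adjusted p = 0.000505) with Fucotrim I, -0.48 (SE 0.07, adjusted p = 0.000368) with Fucotrim II, -0.06 (SE 0.03, adjusted p = 0.212) with SGN-2FF and -0.14 (SE 0.04, adjusted p = 0.0158) with P-SiaFNEtoc. The call with P-SiaFNEtoc was lost without DMSO replicate 1 (edgeR adjusted p = 0.0857), P-SiaFNEtoc replicate 1 (0.0804) or P-SiaFNEtoc replicate 2 (0.0698), and in a single fit of all 14 libraries (0.0682). The mean share of mitochondrially encoded transcripts was highest with Fucotrim II (14.6%, against 11.6% with Fucotrim I), where HSPD1 was lowest, although Fucotrim I replicate 3 (14.2%) exceeded Fucotrim II replicate 2 (12.2%), and their part in its level was not tested.

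HSPE1 (NCBI gene 3336, chr2:197500140-197503449, plus strand) differed from its partner. It was at 95.5, 115.9 and 106.3 CPM in DMSO, 112.7, 120.5 and 129.9 CPM with Fucotrim I, 111.5 and 106.2 CPM with Fucotrim II, 119.1, 129.7 and 122.9 CPM with SGN-2FF, and 98.6, 98.6 and 114.9 CPM with P-SiaFNEtoc. The SGN-2FF libraries alone lay entirely outside the DMSO range, above it. The log2 fold change was 0.24 with SGN-2FF (SE 0.06, edgeR adjusted p = 0.00477) and 0.19 with Fucotrim I (SE 0.07, adjusted p = 0.0244), where 1 library overlapped DMSO. It was 0.03 with Fucotrim II (95% interval -0.16 to 0.22) and -0.02 with P-SiaFNEtoc (95% interval -0.19 to 0.14). The call with SGN-2FF was lost without SGN-2FF replicate 2 (edgeR adjusted p = 0.0546). The call with Fucotrim I was lost without DMSO replicate 1 (edgeR adjusted p = 0.18), DMSO replicate 3 (0.0636), Fucotrim I replicate 2 (0.0789) or Fucotrim I replicate 3 (0.147).

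The counts of HSPE1 may be partial. Of the bases of its main transcript, 34.5% are shared on the same strand with the readthrough gene HSPE1-MOB4, which had 0 counts in every library, and MOB4 itself had 0 to 10 counts. The count ratio of HSPD1 to HSPE1 was 14.5 to 18 in DMSO, 11 to 12.2 with Fucotrim I, 10.5 and 11.6 with Fucotrim II, 12 to 13.3 with SGN-2FF and 13.5 to 15.4 with P-SiaFNEtoc. Apart from P-SiaFNEtoc, the treated libraries were all below those of DMSO. Of the 100-base windows of the main transcripts, 11.6% of HSPE1 and 12.3% of HSPD1 occur elsewhere in hg38, against 3.74% of HSPA8, 3.07% of HSP90AA1 and 1.71% of HSP90AB1 and none of HSPH1, DNAJB1 and DNAJA1, so the authors' counting could have dropped or split some reads of the former.

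**Figure D3:**
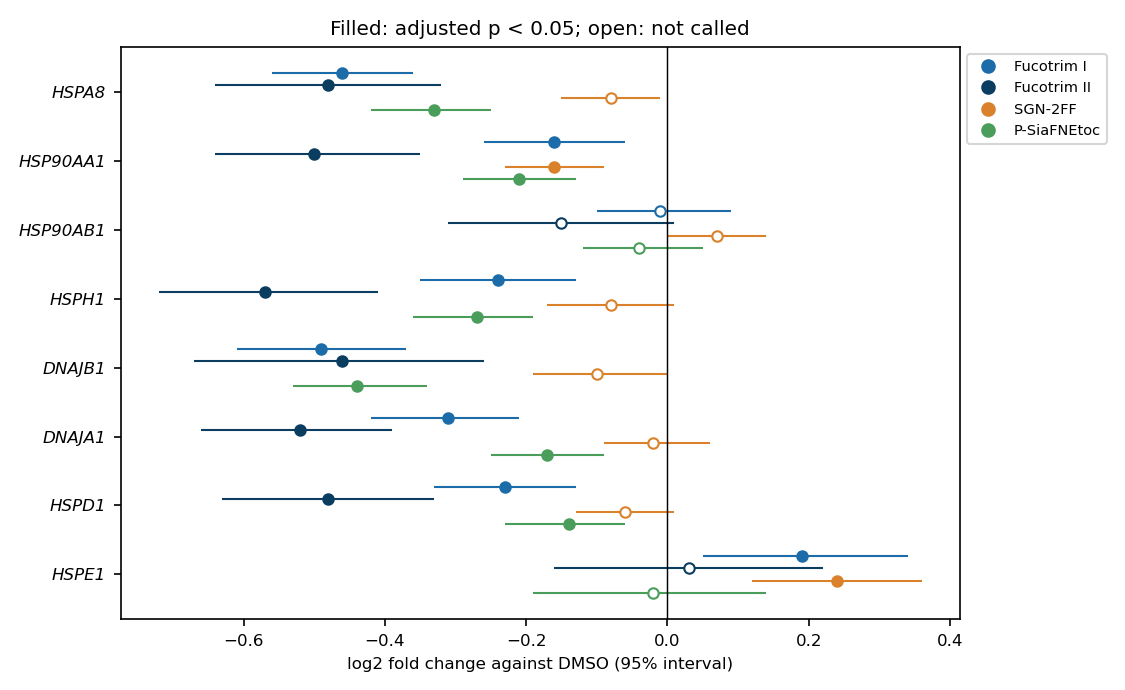
Log2 fold change against DMSO (horizontal axis, with 95% intervals) of each measured heat shock gene with the 4 inhibitors. Filled points passed an edgeR adjusted p under 0.05 and open points did not. Fucotrim II values reach -0.57 (HSPH1), SGN-2FF values lie between -0.16 and 0.24, and HSP90AB1 is open with every inhibitor.

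Per kilobase of all annotated exons, the DMSO levels ran in the order HSP90AB1 (601 ± 4.73 CPM per kilobase, SD, n = 3), HSPA8 (458 ± 16.9), HSP90AA1 (360 ± 5.93), HSPD1 (219 ± 6.58), DNAJA1 (131 ± 4.39), HSPE1 (58.1 ± 5.6), HSPH1 (15.6 ± 0.307) and DNAJB1 (14.5 ± 0.798). The HSPH1 and DNAJB1 levels were the closest neighbours in that order. Over the length of the main transcript in place of all exons, HSPA8 (982 CPM per kilobase) and HSPD1 (744) came before HSP90AB1 (701) and HSP90AA1 (569), HSPE1 (190) came before DNAJA1 (151), and DNAJB1 (52.9) before HSPH1 (25). The order of these levels therefore depended on the gene model.

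No level can be given for HSPA1A and HSPA1B, the stress-inducible HSP70 genes. HSPA1A (NCBI gene 3303, chr6:31815543-31817946) had 0 or 1 count in each library and 2 counts in all 14, and HSPA1B (NCBI gene 3304, chr6:31827738-31830254) had 0 in all 14, so neither was tested, nor was their sum. A count of 0 allows up to 3 counts in a library for counting error alone. Of the exon bases of HSPA1B in GENCODE, 36.6% are shared on the same strand with another gene, whose part in the counts was not tested. All of the 100-base windows of both transcripts (100%) occur elsewhere in hg38: 95.7% of those of HSPA1A and 95.9% of those of HSPA1B lie on 4 alternate contigs of the major histocompatibility region, and 72.4% and 68.9% occur again on the primary chromosomes, where the 2 genes are near-identical copies.

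The low counts extended to the neighbours of these genes. Within 1 Mb of HSPA1A, 63 of 86 protein-coding genes (73.3%) had at most 3 counts in every library. The same held for 81 of 169 (47.9%) at 1 to 5 Mb and 142 of 739 (19.2%) beyond 5 Mb on chromosome 6. Within 1 Mb, LSM2 and DDX39B, of RNA processing, had 0 counts in every library, while BAG6 ran from 0 to 228. TUBB, a tubulin, and RPS18, a ribosomal protein, had at most 2 counts, at -1.1 and 1.46 Mb from HSPA1A. HSP90AB1 at 12.4 Mb had 21809 to 35115 counts. Whether the authors' genome index held the alternate contigs and how reads with several places were counted is not given in the sources used here, and their part in these counts was not tested.

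**Figure D4:**
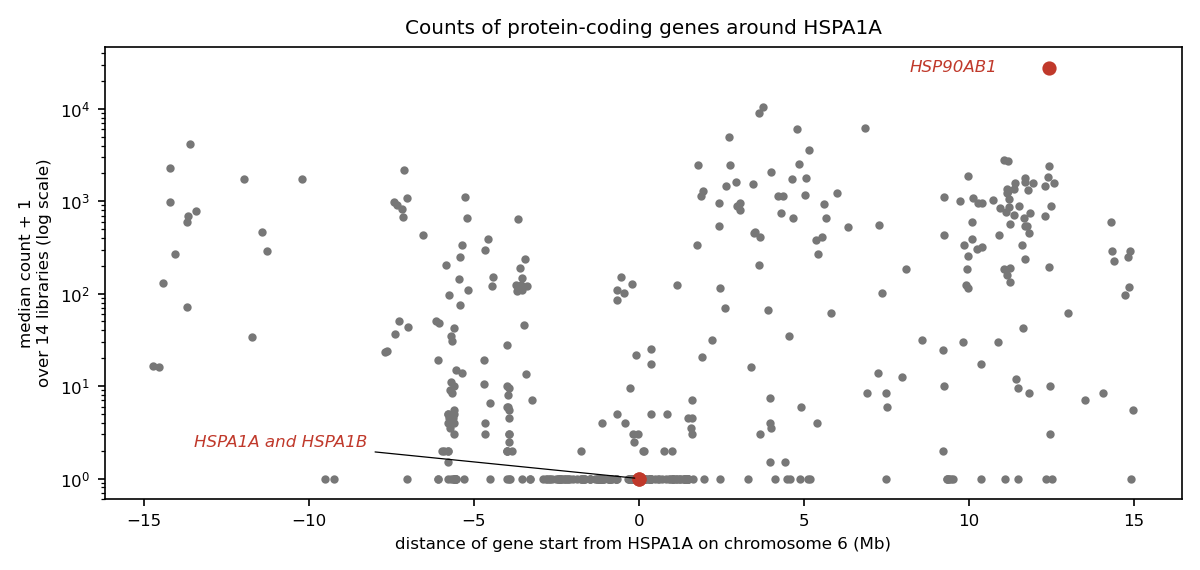
Median count over the 14 libraries plus 1 (vertical axis, log scale) of protein-coding genes within 15 Mb of HSPA1A on chromosome 6, by the distance of their start from that of HSPA1A (horizontal axis, Mb). Points are genes, and red points are HSPA1A, HSPA1B and HSP90AB1. Most genes near HSPA1A sit at a count of 0, and HSP90AB1 has the highest median in view (27898).

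The inhibitors were also compared with each other, in 6 pairs fitted without DMSO. The doses differ between all of them, so the differences belong to the doses used. SGN-2FF at 100 μM and Fucotrim II at 60 μM gave the most calls, with 6 genes lower with Fucotrim II (39.1% of all genes were called in that pair, 19.1% lower), from -0.32 for HSP90AA1 (edgeR adjusted p = 0.00527) to -0.49 for DNAJA1 (adjusted p = 0.000266). The HSP90AA1 call in this pair was lost without SGN-2FF replicate 3 (edgeR adjusted p = 0.0532) and with the replicate number as a block (0.166 with the numbers of the titles and 0.118 with those of the library names). The HSPA8 call was also lost under both blocks (edgeR adjusted p = 0.0834 and 0.0698). That of HSPD1 was lost with the numbers of the titles (0.0562) and that of DNAJB1 with those of the library names (0.0546). Fucotrim I at 30 μM was lower than SGN-2FF for 4 genes (25.1% of all genes called, 12.1% lower), HSPA8 at -0.37 (edgeR adjusted p = 3.09e-06), DNAJB1 at -0.38 (2.96e-05), DNAJA1 at -0.29 (0.000262) and HSPD1 at -0.16 (0.0118), the last lost without SGN-2FF replicate 3 (0.0686). HSP90AA1 was not called in this pair, with a 95% interval of the difference from -0.09 to 0.11.

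Between the 2 Fucotrims, HSP90AA1 (0.33, edgeR adjusted p = 0.0395) and HSPH1 (0.32, adjusted p = 0.0347) were higher with Fucotrim I than with Fucotrim II, where 9.5% of all genes were called and 3.46% were called higher. Both calls were lost when any 1 of the 3 Fucotrim I libraries was left out. Without Fucotrim II replicate 2, which leaves 1 library of that inhibitor, the HSPH1 value was 0.26. The 1366 calls over all genes in this pair became 895, 400 and 336 without Fucotrim I replicates 1, 2 and 3. HSPA8 and DNAJB1 gave no call between the Fucotrims, with 95% intervals from -0.18 to 0.21 and from -0.25 to 0.17.

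SGN-2FF was higher than P-SiaFNEtoc at 2 μM for 5 genes (13% of all genes called, 7.01% higher). They were DNAJB1 at 0.34 (edgeR adjusted p = 2.74e-07), HSPE1 at 0.26 (0.000186), HSPA8 at 0.25 (6.76e-06), HSPH1 at 0.19 (0.00272) and DNAJA1 at 0.15 (0.00621). The DNAJA1 call was lost without P-SiaFNEtoc replicate 1 (edgeR adjusted p = 0.0734). In a single fit of all 14 libraries, the calls of HSPE1 (edgeR adjusted p = 0.0533), HSPH1 (0.0518) and DNAJA1 (0.113) were lost. Fucotrim II was lower than P-SiaFNEtoc for DNAJA1 (-0.34, edgeR adjusted p = 0.00185), HSPD1 (-0.33, 0.00539), HSPH1 (-0.29, 0.00721) and HSP90AA1 (-0.28, 0.0102), where 43.7% of all genes were called and 21.6% lower. The HSP90AA1 call was lost without P-SiaFNEtoc replicate 1, 2 or 3 (edgeR adjusted p = 0.0611, 0.068 and 0.0542) and under the block with the numbers of the titles (0.0737). Fucotrim I and P-SiaFNEtoc differed in 2 of the 8 genes, where 34.6% of all genes were called, 17.1% lower and 17.5% higher. DNAJA1 was lower with Fucotrim I (-0.14, edgeR adjusted p = 0.0393) and HSPE1 higher (0.22, adjusted p = 0.0056), and the libraries of the pair overlapped for both genes. Leaving out Fucotrim I replicate 3 or P-SiaFNEtoc replicate 2 ended both of these calls, and leaving out Fucotrim I replicate 1, P-SiaFNEtoc replicate 1 or P-SiaFNEtoc replicate 3 left 1 of them.

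Among all genes with at least 50 counts on average (11835 genes), the one whose log2 CPM over the 14 libraries differed least from that of HSPA8, each taken from its own mean, was CCDC117 (root mean square difference 0.0655). DNAJB1 came next (0.0713), and then POLR1B, a subunit of RNA polymerase I (0.0741). For HSPH1 the nearest were TRA2B (0.0609), ZNF480 (0.0645) and POLQ (0.0654), and for HSPD1 they were NCL, which encodes nucleolin (0.0331), DHX9 (0.0355) and GTF2F2 (0.0355). The nearest of the other heat shock genes was HSPD1, at rank 20, for HSPH1 and DNAJA1, at rank 13, for HSPD1.

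Related chaperone genes were described in 7 lists that hold 77 genes, of which 73 were tested with each inhibitor. Over all lists, 32 genes were lower and 9 higher with Fucotrim I, and 37 and 9 with Fucotrim II. With SGN-2FF and with P-SiaFNEtoc, 11 were lower and 7 higher. Of all genes tested, 22.1% were lower and 21.6% higher with Fucotrim I, and 25.7% and 25.6% with Fucotrim II. The shares were 9.08% and 11.5% with SGN-2FF, and 7.33% and 9.02% with P-SiaFNEtoc. The counts of each list below stand beside the same shares, and some are near them. Over all lists, the medians of the log2 fold changes were -0.12, -0.21, -0.03 and -0.03, against 0, 0.01, 0 and 0 over all genes.

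Of the heat shock factors, the transcription factors of the response, HSF1 was higher with Fucotrim II (log2 fold change 0.28, edgeR adjusted p = 0.02), SGN-2FF (0.15, adjusted p = 0.0357) and P-SiaFNEtoc (0.17, adjusted p = 0.017), and was at 0.11 with Fucotrim I (adjusted p = 0.169). HSF4 was higher with the 3 fucosylation inhibitors, at 0.91, 1.43 and 0.57 for Fucotrim I, Fucotrim II and SGN-2FF, where DMSO libraries ran from 32.1 to 37.7 CPM, those of Fucotrim I from 57.2 to 74.1 CPM, and those of Fucotrim II stood at 79.7 and 111.6 CPM. These are levels of mRNA, and the activity of the factors was not measured.

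The other cytosolic HSP70, HSP110 and small heat shock proteins had 3 genes lower and 2 higher of 9 tested with Fucotrim I, and 5 lower and 1 higher of 8 with Fucotrim II. They had 1 lower and 1 higher of 8 with SGN-2FF, and 3 lower and 2 higher of 8 with P-SiaFNEtoc. HSPA4L, of the HSP110 family as HSPH1 is, was lower with all 4 inhibitors (-0.31, -0.89, -0.21 and -0.29 for Fucotrim I, Fucotrim II, SGN-2FF and P-SiaFNEtoc). HSPB1, the small heat shock protein HSP27, was higher with all 4 (0.28, 0.34, 0.22 and 0.15). HSPB8, also a small heat shock protein, was lower with Fucotrim I (-0.22) and Fucotrim II (-0.60) and higher with P-SiaFNEtoc (0.36). CRYAB, an alpha crystallin, is 1 of the 2 genes called higher with Fucotrim I, at 11 to 16 counts against 0 to 3 in DMSO. It passed the filter on low counts only through the Fucotrim I libraries, so its call rests on the group where it is high. With the other inhibitors it was not tested. It had 6 and 12 counts with Fucotrim II, 5 to 8 with SGN-2FF and 1 to 7 with P-SiaFNEtoc.

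Of the other 10 cytosolic J proteins, 5 were lower and 1 higher with Fucotrim I, 6 and 1 with Fucotrim II, 4 and 0 with SGN-2FF, and 3 and 1 with P-SiaFNEtoc. DNAJB4, a close relative of DNAJB1, was lower with all 4 inhibitors, at -0.87, -1.25, -0.46 and -0.37, from 20 to 22.5 CPM in DMSO to 7.35 and 10.3 CPM with Fucotrim II. DNAJB2, a J protein known from neurons, was higher with Fucotrim I (0.22), Fucotrim II (0.55) and P-SiaFNEtoc (0.16).

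Among the 18 HSP90 and HSP70 cochaperones, 5 were lower and 3 higher of 17 tested with Fucotrim I, and 8 and 3 of 18 with Fucotrim II. The counts were 1 and 1 with SGN-2FF, and 3 and 0 with P-SiaFNEtoc. Of all genes, 22.1% were lower and 21.6% higher with Fucotrim I, and 25.7% and 25.6% with Fucotrim II. CHORDC1, an HSP90 cochaperone, was lower with Fucotrim I (-0.39), Fucotrim II (-0.79) and P-SiaFNEtoc (-0.27), and PTGES3, the p23 cochaperone of HSP90, was lower with all 4 (-0.29, -0.60, -0.17 and -0.14). CDC37, which brings kinases to HSP90, was higher with the 3 fucosylation inhibitors (0.36, 0.44 and 0.21), from 255.3 to 262.5 CPM in DMSO to 349.2 and 358.7 CPM with Fucotrim II.

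The TRiC chaperonin, which folds actin and tubulin, and prefoldin, which delivers them, had 8 genes lower and 1 higher of 13 tested with Fucotrim I and 10 lower and 1 higher with Fucotrim II, against 2 and 2 with SGN-2FF and 1 and 0 with P-SiaFNEtoc. The TRiC subunit TCP1 was lower with Fucotrim I (-0.17), Fucotrim II (-0.50) and P-SiaFNEtoc (-0.13), and the prefoldin subunit VBP1 with Fucotrim I (-0.31), Fucotrim II (-0.66) and SGN-2FF (-0.17). PFDN5, a prefoldin subunit as well, was the one gene of this list higher with the Fucotrims, at 0.20 and 0.60.

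Of the 14 other mitochondrial chaperones and proteases tested, 5 were lower and 1 higher with Fucotrim I, and 6 and 1 with Fucotrim II. The counts were 2 and 1 with SGN-2FF, and 1 and 2 with P-SiaFNEtoc. Of all genes, 9.08% were lower and 11.5% higher with SGN-2FF, and 7.33% and 9.02% with P-SiaFNEtoc. HSPA9, the HSP70 of the mitochondrial matrix, was lower with Fucotrim I (-0.27, edgeR adjusted p = 0.000124) and Fucotrim II (-0.25, adjusted p = 0.00753), and was at -0.06 with SGN-2FF (adjusted p = 0.191) and -0.03 with P-SiaFNEtoc (adjusted p = 0.594). CLPB, a disaggregase, was lower with Fucotrim I (-0.31), Fucotrim II (-0.73) and SGN-2FF (-0.18), whereas SPG7, a subunit of a protease of the inner membrane, was higher with the 2 Fucotrims (0.40 and 0.53).

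The endoplasmic reticulum (ER) members of the same families followed another order of inhibitors. All 6 were lower with Fucotrim I (median log2 fold change -1.05), 2 with Fucotrim II, 1 with SGN-2FF and none with P-SiaFNEtoc, where 1 was higher. HSPA5 (BiP), the ER HSP70, was at 1636.3 to 1696.9 CPM in DMSO and 485.9 to 658.5 CPM with Fucotrim I (-1.47, edgeR adjusted p = 0.000101), and at 1350.8 and 1379.2 CPM with Fucotrim II (-0.30, adjusted p = 0.00423). HSP90B1 (GRP94), the ER HSP90, was at 2785.2 to 2970.8 CPM in DMSO and 1123.9 to 1321.5 CPM with Fucotrim I (-1.23, edgeR adjusted p = 1.47e-12), and at 3083.7 and 3487.6 CPM with Fucotrim II, where it was not called. The cytosolic paralogs HSPA8 and HSP90AA1 thus had log2 fold changes of -0.46 and -0.16 with Fucotrim I beside values beyond -1 for these ER genes, and with Fucotrim II the cytosolic values were -0.48 and -0.50.

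**Figure D5:**
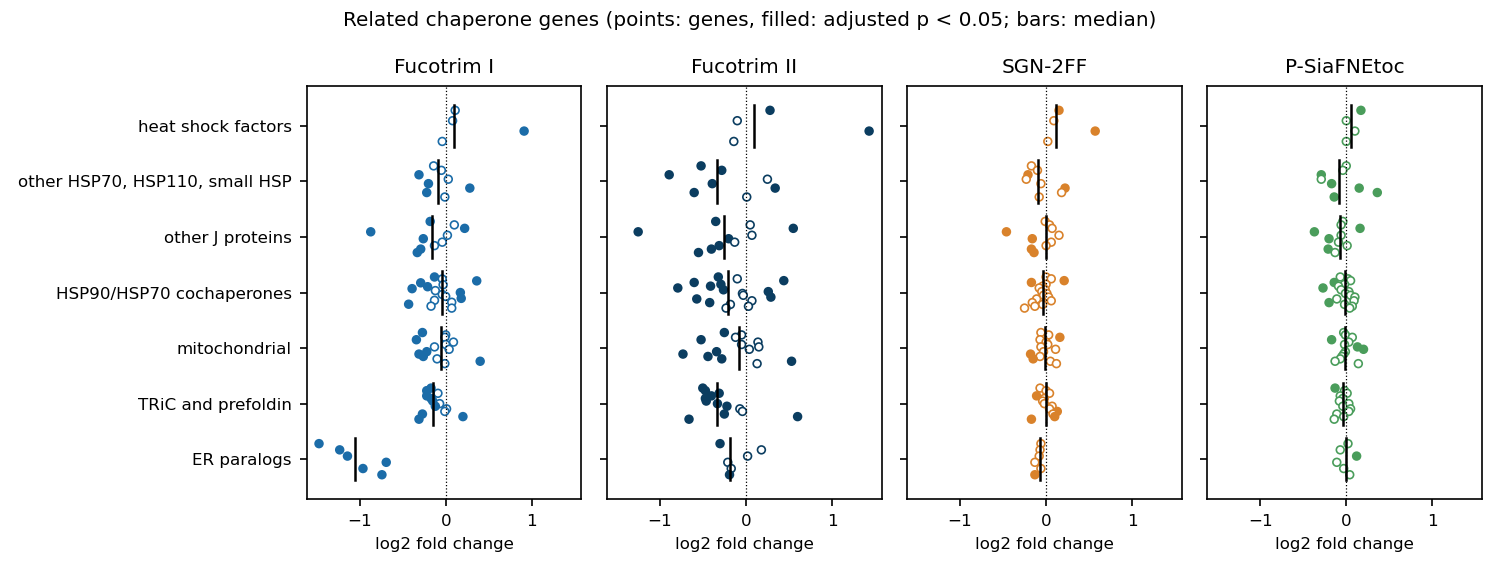
Log2 fold change against DMSO (horizontal axes) of the genes of the 7 lists (rows) with each inhibitor (panels). Points are genes, filled where the edgeR adjusted p was under 0.05, and bars are the median of the genes shown, from which CRYAB is left out. The ER genes lie furthest to the left with Fucotrim I (median -1.05), and HSF4 lies furthest to the right with Fucotrim II (1.43).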

How the data were processed

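Per the study's methods, RNA of CWR22RV1 cells was sequenced as single reads from stranded mRNA libraries. The authors used FastQC and Cutadapt for quality control and trimming, HISAT2 for alignment (hg38), featureCounts for read counts per gene and limma-voom for testing. They deposited whole-number, unnormalized counts, with the same 3 DMSO libraries repeated beside every inhibitor. The annotation release, the strand setting and the treatment of reads with several places are not given in the sources used here. The methods state 3 biological repeats per condition, and 2 Fucotrim II libraries were analysed here. Genes were matched by NCBI gene number, and DMSO counts were equal in all tables for the 27819 shared genes.

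Low counts were removed by filterByExpr (a count of at least 10 and a total of at least 15), libraries were scaled by TMM, and genes were tested with edgeR 4.0.16 (robust quasi-likelihood) in R 4.3.3, with limma 3.58.1 and DESeq2 1.42.0 as alternatives. Each inhibitor was fitted alone with DMSO, and each pair of inhibitors on the joined counts without DMSO. The code was tested on simulated counts. Figures were drawn with matplotlib 3.10.9. Intervals are 95% and cover the spread between libraries. The replicates of each group differed beyond sampling noise. Gene positions and shared exons come from GENCODE (hg38), promoters and chromosome 6 positions from RefSeq (GRCh38.p14), where 994 of 1049 protein-coding genes of that chromosome matched the tables.

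The heat shock genes, the 7 lists and the tests were chosen with earlier results of these data known. Named genes were taken from the 10 heat shock genes, per list and inhibitor up to 2 called genes with the largest rise and 2 with the largest fall, HSF1, HSPA9, HSPA5 and HSP90B1, and the 3 genes most like HSPA8, HSPH1 and HSPD1. Values of a gene named for one inhibitor are also given for the others. HSPE1-MOB4, MOB4 and the neighbours of HSPA1A were named after their counts were seen. HSPA6, PFDN6 and DNAJA3 of the lists were tested with no inhibitor. Results for 2 further marker genes are not reported here.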

Additional observations from a re-analysis of the deposited data

How the results depend on the processing

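Against DMSO, 459 of 480 values of single genes under an alternative kept their direction and their side of the threshold, and 650 of 720 did between inhibitors. The alternatives were DESeq2's size factors and test, limma-voom, no filter, a filter of 10 counts in each library, an adjusted p under 0.01, no mitochondrially encoded genes, all 14 libraries in 1 fit, the replicate number as a block, and leaving out each library. Of the 10 heat shock genes, leaving out 1 library gave 5 to 7 calls with Fucotrim I. It gave 1 to 3 with SGN-2FF and 5 to 6 with P-SiaFNEtoc. With Fucotrim II, leaving out a DMSO library gave 6 calls. Counts without a Fucotrim II library are not given, since 1 library then remains in that group. The 480 and 720 values above include such fits. Between inhibitors, leaving out 1 library gave 3 to 5 calls for Fucotrim I against SGN-2FF. It gave 0 to 2 for Fucotrim I against P-SiaFNEtoc and 4 to 7 for SGN-2FF against P-SiaFNEtoc. Without 1 library of the other inhibitor, Fucotrim II gave 0 calls against Fucotrim I, 5 to 6 against SGN-2FF and 3 against P-SiaFNEtoc. With 1 library left out, the number of all genes called moved by over 1.5 times in the following cases. Without SGN-2FF replicate 2 it was 1642, against 2946 with SGN-2FF, and 1047, against 1850 between SGN-2FF and P-SiaFNEtoc. Without P-SiaFNEtoc replicate 2 it was 1516, against 2331 with P-SiaFNEtoc, and 1195 between SGN-2FF and P-SiaFNEtoc. Without SGN-2FF replicate 3 it was 3694, against 5717 between Fucotrim II and SGN-2FF. Between the Fucotrims it was 336 to 895 without a Fucotrim I library, against 1366.

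An adjusted p under 0.01 left 0 calls between the Fucotrims and 1 between Fucotrim I and P-SiaFNEtoc, since that threshold is stricter. All 14 libraries in 1 fit gave 4 calls between the Fucotrims and 2 between SGN-2FF and P-SiaFNEtoc, and the cause was not tested. Over all genes, that fit called 998 with P-SiaFNEtoc (2331 in the main fit), 1695 with SGN-2FF (2946) and 504 between them (1850). It called 8437 with Fucotrim II (7511) and 3597 between the Fucotrims (1366). DESeq2's test called fewer genes in every comparison, 1482 with P-SiaFNEtoc, 1942 with SGN-2FF and 1154 between them.

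Correlations of same-numbered deviations ran from -0.24 to 0.20. Deviations from means of 2 or 3 libraries cannot decide whether the replicate numbers pair the libraries. With the replicate number as a block, the heat shock genes called against DMSO numbered 7 with Fucotrim I, 6 with Fucotrim II, 2 with SGN-2FF and 6 with P-SiaFNEtoc, as without it. The block left 0 calls between the Fucotrims with the numbers of the titles, and 3 between Fucotrim II and SGN-2FF with those numbers or with the numbers in the library names of Fucotrim II, which differ. Over all genes, the block gave 7288 calls with Fucotrim I (6209 without it), 2868 with SGN-2FF (2946) and 2674 with P-SiaFNEtoc (2331). With Fucotrim II it gave 5300 by the titles and 7779 by the library names (7511 without it). Between the Fucotrims it gave 358 and 2810 (1366 without it).

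Values that turned sign were all uncalled. HSPE1 with Fucotrim II was at -0.03 under the block with the library names, and ran from -0.04 to 0.10 when 1 library was left out. With P-SiaFNEtoc it ran from -0.10 to 0.05 without 1 library. Leaving out 1 library also turned the sign between Fucotrim I and Fucotrim II for HSPA8 (-0.02 to 0.06) and DNAJB1 (-0.18 to 0.12), between Fucotrim I and SGN-2FF for HSPE1 (-0.09 to 0.01) and HSP90AA1 (-0.02 to 0.03), and between Fucotrim II and P-SiaFNEtoc for DNAJB1 (-0.17 to 0.12).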
